A study of Mus musculus with 4 samples.

Results

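Cathepsin genes were followed across the cell classes of transplanted mouse hearts, 10 genes (Ctsa, Ctsb, Ctsc, Ctsd, Ctsh, Ctsk, Ctsl, Ctss, Ctsw and Ctsz) of the 34097 in each count matrix, chosen by symbol. Hearts were taken on day 5 after transplantation and the RNA of their single cells was sequenced from droplets, in 3 allogeneic libraries (allografts 1, 2 and 3, from donor hearts that differ genetically from the recipient) and 1 isogeneic library (isograft 2, from a genetically matched donor). The series title concerns VISTA, an inhibitory receptor of macrophages, but the labels used here name no VISTA treatment, mouse strain, age, sex or cell sort for any group. They do not say whether each replicate is an animal of its own. The spread that every p-value rests on is therefore one between libraries and may be technical. The question put to the data was how the lysosomal proteases of macrophages and of the other graft cells differ between rejecting and matched hearts, and in particular how Ctsl compares with Ctss.

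Cathepsins are proteases of the lysosome and endosome. Most are cysteine proteases of the papain family, made as inactive precursors that are cut to the mature enzyme in acid compartments and held in check by cystatins and related inhibitors. In antigen-presenting cells they break down proteins to peptides and trim the invariant chain (Cd74) from MHC class II molecules: cathepsin S, encoded by Ctss, does the last cuts in macrophages, B cells and dendritic cells, and cathepsin L, encoded by Ctsl, is best known for that role in the epithelium of the thymus. In other tissues cathepsin L turns over lysosomal content, and in the heart its loss is known to cause cardiomyopathy in mice.

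The family's shared chemistry can be read in the coding sequence. The following runs are the 33 bases that surround the codon of the catalytic cysteine, 5′ to 3′ on the coding strand of GENCODE M21 transcripts, with that codon in capitals. They are shown for the 4 cysteine cathepsins on which the results turn.
Ctsl: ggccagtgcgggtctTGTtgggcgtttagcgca
Ctss: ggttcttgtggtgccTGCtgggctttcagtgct
Ctsk: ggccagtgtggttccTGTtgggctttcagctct
Ctsw: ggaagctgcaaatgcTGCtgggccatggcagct
The cysteine is codon 138 of 334 in Ctsl, 148 of 341 in Ctss, 139 of 329 in Ctsk and 151 of 371 in Ctsw. Over this stretch Ctsk matched Ctsl at 26 of 33 bases, Ctss at 20 and Ctsw at 16. A C-x-x-C-W or C-x-x-C-Y pattern, by which a script located the codon, was found once in each of the 8 cysteine members and in neither Ctsd, an aspartic protease, nor Ctsa, a serine carboxypeptidase.

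The upstream sequence of Ctss is shown because its macrophage level is set beside interferon-gamma genes below, and that of Ctsd because it carries the hexamer known from lysosomal gene promoters. Both are RefSeq windows on GRCm38.p6 that end where the first annotated exon begins, and capitals mark motif matches. The Ctss run is chr3:95526536-95526785 on the plus strand and the Ctsd run is chr7:142388039-142388077 on the minus strand.
Ctss: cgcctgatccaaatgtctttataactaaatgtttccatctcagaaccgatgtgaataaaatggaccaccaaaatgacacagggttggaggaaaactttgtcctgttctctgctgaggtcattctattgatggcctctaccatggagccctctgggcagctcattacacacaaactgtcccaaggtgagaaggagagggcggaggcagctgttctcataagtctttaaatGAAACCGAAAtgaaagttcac
Ctsd: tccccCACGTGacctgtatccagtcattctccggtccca
The motifs, 3 in all, were searched on both strands of the 250 bases upstream of each start. The core of the interferon-stimulated response element, a pair of GAAA runs with 2 bases between them, begins 21 bases before the start of Ctss and was held by 2.98% of 32851 windows. CACGTG, the E-box within the element that TFEB binds, begins 245 and 98 bases before the start of Ctsd, the nearer of them within an exon and not printed, and was held by 6.02% of windows. The core of the interferon-gamma-activated site, TTC and GAA with 3 bases between them, was held by 7.02% of windows and by neither gene's window. The table held 7 of the 10 genes, and of these Ctsl also held CACGTG and Ctsc the interferon-gamma-activated site core. The tabled start of Ctsl lies inside the span of longer GENCODE transcripts of the gene, so its window is not printed. A match says only that the letters are there.

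Depth was 51054446, 63434265 and 51463909 UMIs for allografts 1, 2 and 3, with 4737, 7663 and 5980 cells kept. The isograft had 100038951 UMIs and 10341 cells. Allograft 3 stood apart, with a chi-square per gene of 358 and 380 against allografts 1 and 2, which differed from each other by 18.2. Cells were assigned to 13 classes by the number of class markers detected, with no cathepsin among the markers. Mononuclear phagocytes were split into macrophages (1088, 1307 and 345 allograft cells and 2288 isograft cells) by C1q genes, Mrc1, Ms4a7 and Pf4, and monocytes (387, 812, 549 and 177) by Ly6c2, Chil3, Ccr2 and others, and phagocytes with no lead of either set were kept apart. No class had markers of another class among its 10 leading genes. Median UMIs per macrophage were 10280, 7992 and 8126 in allografts 1, 2 and 3 and 5012 in the isograft. For monocytes they were 10500, 8145 and 8058 against 4143. In fibroblasts and endothelial cells the isograft's median lay above that of allograft 3. The gates count detected markers, and the part of cell depth in them was not tested. The 7 classes with at least 20 cells in every library were tested, and UMIs were summed per library and class. A level below is in CPM, the gene's UMIs per 1000000 UMIs of the class in that library. UMIs mark transcript ends and are not scaled by length, so levels are compared between libraries and classes and not between genes.

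In macrophages Ctsl was lower in every allograft. It stood at 625.5, 715 and 756 CPM in allografts 1, 2 and 3 (699 ± 66.8, SD, n = 3) and at 2894 CPM in the isograft. The 3 allografts lay close together, all far under the isograft. The log2 change of -2.02 (SE 0.20), a 4.05-fold lower level, passed the edgeR quasi-likelihood test (edgeR adjusted p = 0.0237). Ctsd, the aspartic protease cathepsin D that also activates other lysosomal enzymes, was the other member to fall, at 1378, 1396 and 1219 CPM against 3183 (log2 -1.23, SE 0.19, edgeR adjusted p = 0.0485). Thus 2 of 10 members were called, both lower, where 0.562% of the 14957 genes tested were called lower and 2.51% in either direction. In these macrophage sums the monocyte markers stood at 887, 789 and 747 CPM against 173, higher where Ctsl and Ctsd were lower, and the fibroblast markers at 32.6, 64.7 and 1256 against 990, with allograft 3 above the isograft. The part of other cells' transcripts was not tested. Both calls were lost without allograft 1 or 2, where edgeR adjusted p was 0.0725 and 0.0545 for Ctsl and 0.226 and 0.186 for Ctsd, and that of Ctsd also with doublets kept (0.061). Without allograft 3 the count was 9 of 10 members, 5 higher and 4 lower with Ctsb the exception, and 44.0% of genes were called.

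Ctss stood at 5758, 5701 and 4336 CPM in allograft macrophages (5265 ± 805, SD, n = 3) and at 2749 CPM in the isograft. All 3 allografts were above the isograft, allograft 3 least. The log2 change of 0.97 (SE 0.26) did not pass (edgeR adjusted p = 0.129). Without allograft 3 it was 1.10 and passed (edgeR adjusted p = 0.000502). DESeq2 also called it (0.98, DESeq2 adjusted p = 0.0142).

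The ratio of Ctsl to Ctss needs no scaling between libraries. In macrophages it was 0.109, 0.125 and 0.174 in allografts 1, 2 and 3 and 1.05 in the isograft, so that Ctsl UMIs were about as many as Ctss UMIs in the matched graft and far fewer in the allografts. The log2 ratio differed by -2.98 (allograft mean -2.91 ± 0.35, SD, n = 3; isograft 0.07), a ratio 7.89-fold lower. An exact two-sided permutation test over the 4 libraries gave p = 0.25, the smallest they allow, and 0.35 after adjustment over the 7 classes in which it was computed.

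**Figure D1:**
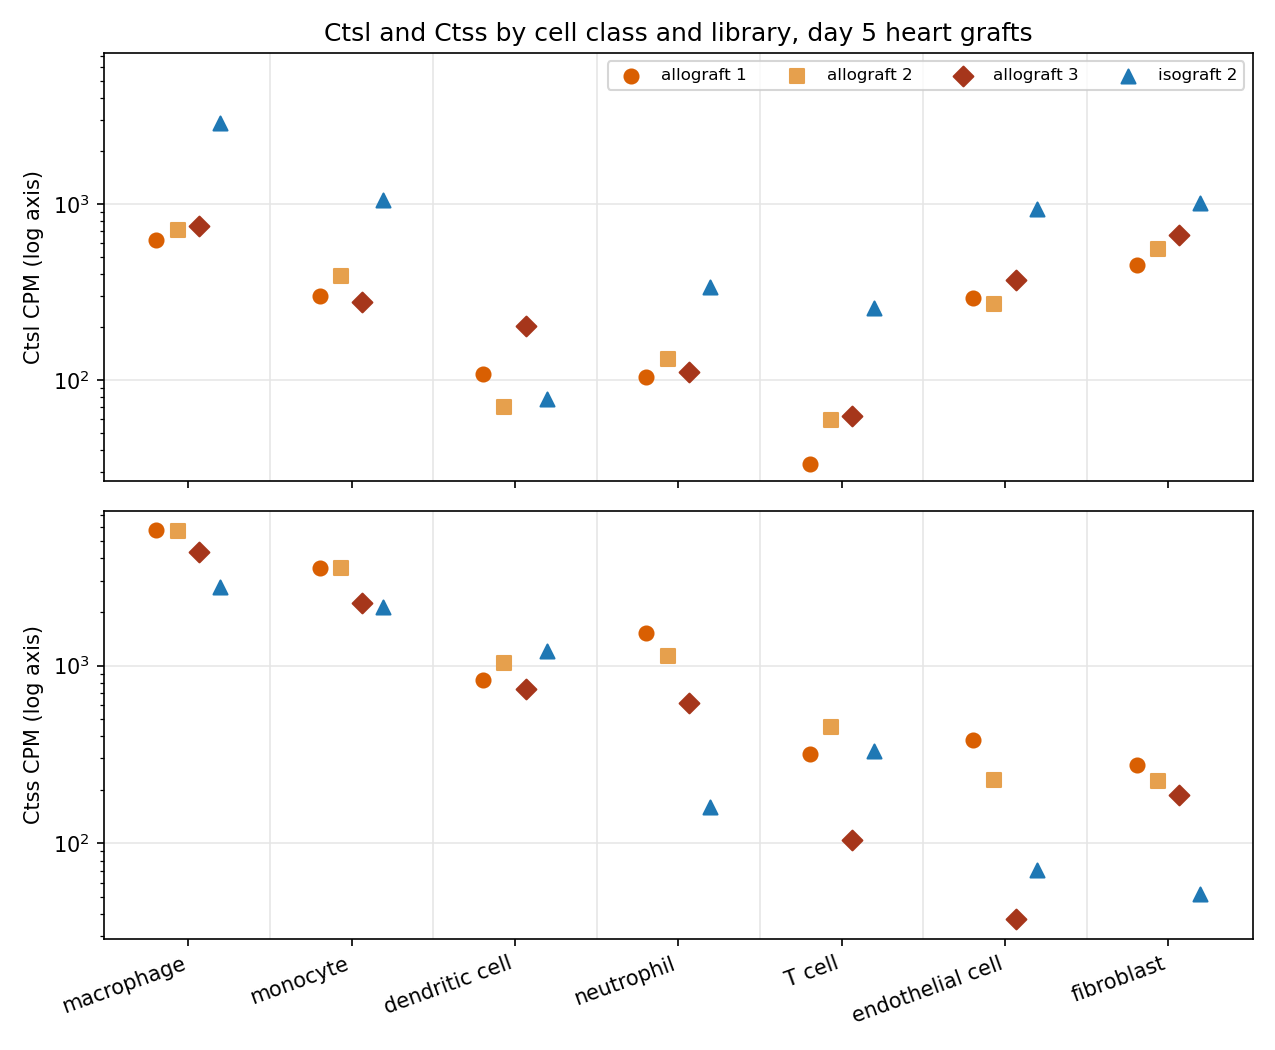
Ctsl (upper panel) and Ctss (lower panel) in CPM on log axes, for 7 cell classes, with 1 point per library. In macrophages the 3 allografts sit between 625.5 and 756 for Ctsl, under the isograft at 2894, and between 4336 and 5758 for Ctss, above the isograft at 2749. In dendritic cells neither gene shows the order of allografts and isograft seen in macrophages.

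None of the remaining members passed in macrophages. Ctsc, cathepsin C, which activates the serine proteases of granules, stood at 2082, 2142 and 1714 CPM against 1014 (log2 0.99, SE 0.23, edgeR adjusted p = 0.104). Ctsz, a carboxypeptidase, stood at 2219, 2257 and 1704 CPM against 1404 (0.58, edgeR adjusted p = 0.255), and Ctsh, an aminopeptidase, at 981, 986 and 575 against 530 (0.71, edgeR adjusted p = 0.333). Each of these lay above the isograft in all 3 allografts, where 66% of all genes tested in macrophages lay wholly on one side.

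Ctsb, an endopeptidase with carboxypeptidase activity, overlapped: 3933, 4264 and 2703 CPM in the allografts and 4232 in the isograft (log2 -0.19, SE 0.30, edgeR adjusted p = 0.751). Ctsa, which protects lysosomal galactosidase and sialidase, stood at 361, 366 and 308 CPM against 577 (-0.71, SE 0.20, edgeR adjusted p = 0.138). Ctsk, the collagen-cutting protease of osteoclasts, was at 6.35, 6.80 and 12.1 CPM against 21.8 (-1.40, SE 0.40, edgeR adjusted p = 0.141). Fibroblast markers in these macrophage sums stood at 32.6, 64.7 and 1256 CPM against 990, and their part in the Ctsk level was not tested. In all, 9 of 10 members lay wholly on one side of the isograft, where 66% of all genes tested did. This share was computed in macrophages only. The median log2 change was 0.20 over the members and -0.01 over all genes.

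Ctsw, a protease of cytotoxic lymphocytes, was counted 168, 121 and 11 times in allograft macrophages and 8 times in the isograft, or 14.0, 11.0 and 3.34 CPM against 0.554 (log2 4.14, SE 0.99, edgeR adjusted p = 0.107). The 6 T cell markers summed to 140, 115 and 44.9 CPM in the same macrophage sums and to 3.12 CPM in the isograft, in the same order of libraries. Their part in the Ctsw level was not tested.

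The sum over the 10 genes did not separate the groups. It was 17357, 17846 and 13331 CPM in allograft macrophages and 16604 CPM in the isograft, which lay within the allograft range. Its make-up did. Ctsl made up 3.60%, 4.01% and 5.67% of the allografts' cathepsin UMIs against 17.4% of the isograft's, and Ctsd 7.94%, 7.82% and 9.15% against 19.2%. Ctss made up 33.2%, 31.9% and 32.5% against 16.6%, and Ctsc 12.0%, 12.0% and 12.9% against 6.11%. Ctsb was at 22.7%, 23.9% and 20.3% against 25.5%. These shares are bound to sum to the whole and are given as a description.

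**Figure D2:**
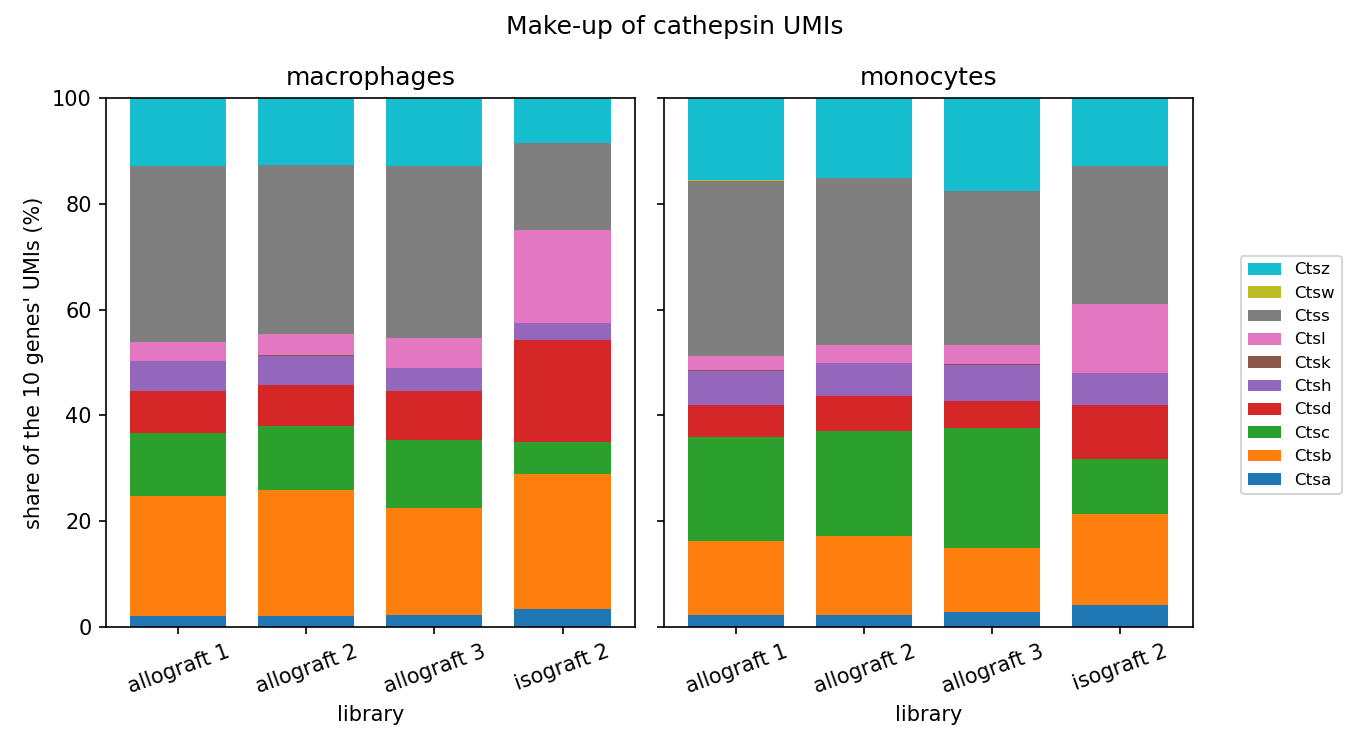
Share (%) of the summed UMIs of the 10 genes that each gene takes, in macrophages (left) and monocytes (right), with 1 stacked bar per library. In macrophages the Ctsl band is 17.4% in the isograft and at most 5.67% in the allografts, and the Ctss band is 16.6% and at least 31.9%.

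Macrophages of the 2 groups were largely in different states, and Ctsl differed between those states. By markers fixed for description, 69.0%, 68.6% and 61.4% of allograft macrophages were interferon-exposed (Cxcl9, Gbp2, Gbp5, Iigp1, Nos2) and 11.0%, 11.2% and 18.8% lipid-associated (Spp1, Gpnmb, Trem2, Fabp5, Cd9). In the isograft 84.5% were lipid-associated and 0.175% (4 cells) interferon-exposed. Within lipid-associated macrophages Ctsl stood at 1069, 1457 and 1629 CPM in the allografts and 3106 CPM in the isograft, and within interferon-exposed ones at 473, 559 and 412 CPM in the allografts. Macrophages of neither state nor the resident-like one held Ctsl at 992, 897 and 960 CPM against 952, with no gap between the groups.

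In lipid-associated macrophages alone, a comparison added after the data were seen, the log2 change of Ctsl was -1.19 (SE 0.33) and did not pass (edgeR adjusted p = 0.329), and that of Ctsd was -0.62 (edgeR adjusted p = 0.548). Only 120, 147 and 65 allograft cells entered it. The macrophage difference in Ctsl thus cannot be told apart from the difference in states in these libraries. Ctss went otherwise: it was at 7430, 7074 and 3827 CPM in lipid-associated allograft macrophages and 2835 CPM in isograft ones (log2 1.07, edgeR adjusted p = 0.519), at 5295, 5418 and 4136 CPM in interferon-exposed ones, and at 6718, 6018 and 5188 CPM against 2052 CPM in macrophages of no state. In the lipid-associated macrophages and those of no state every allograft was above the isograft. Resident-like macrophages, 1, 2 and 3 allograft cells and 87 isograft cells, held Ctss at 3794, 3445 and 1065 CPM against 1794, on 5, 16 and 15 allograft counts.

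**Figure D3:**
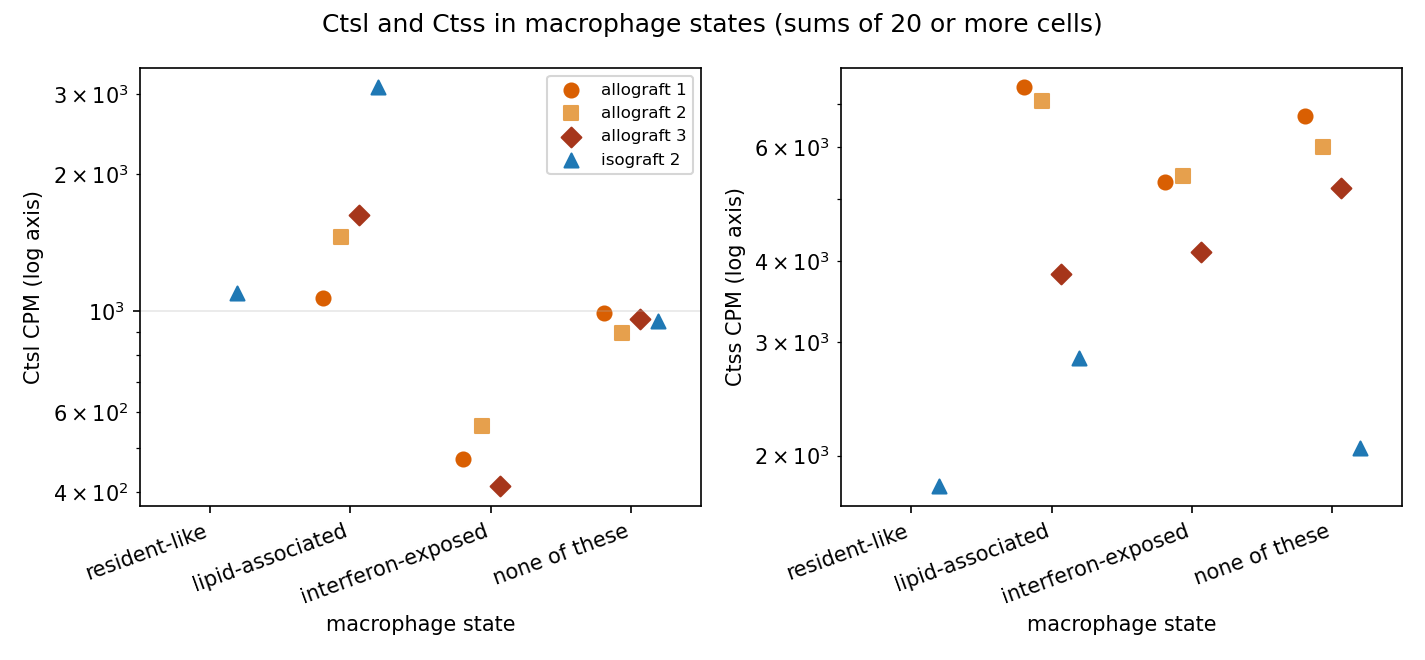
Ctsl (left) and Ctss (right) in CPM on log axes, by macrophage state and library, shown where a library held at least 20 cells of the state. Interferon-exposed allograft macrophages sit lowest for Ctsl, at 412 to 559, and lipid-associated isograft macrophages highest, at 3106.

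Genes around the cathepsins in macrophages were read from lists chosen by function. Of 11 class II processing genes 8 rose and none fell, with a median log2 change of 3.69. Over all 14957 genes tested in macrophages 1.95% were called higher and the median was -0.01. H2-DMa, part of the class II peptide editor, stood at 768, 787 and 608 CPM against 66.0 (log2 3.48, SE 0.29, edgeR adjusted p = 0.0187). H2-Ab1, which encodes a class II chain, was read at 5108, 4631 and 2649 CPM against 225 (4.23, SE 0.52, edgeR adjusted p = 0.0331), and the class II activator Ciita at 161, 135 and 72.0 CPM against 4.30 (4.86, SE 0.63, edgeR adjusted p = 0.0363). H2-DMb2, which like the more abundant H2-DMb1 encodes the other subunit of the editor, rose by 2.57 (SE 0.25, edgeR adjusted p = 0.0237). H2-Eb1 did not pass, at 4982, 4589 and 1827 CPM against 178, nor did H2-DMb1, at 650, 565 and 318 against 51.0. H2-Ob did not pass either. Each of these stood above the isograft in all 3 allografts, where 66% of all genes tested in macrophages lay wholly on one side. Ctss, which acts in the same pathway, was likewise not among the genes that passed.

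Of 8 interferon-gamma pathway genes 4 rose and none fell (median 1.96), among them the feedback inhibitor Socs1 (192, 194 and 236 CPM against 10.9; edgeR adjusted p = 0.0142), the transcription factor Irf1 (608, 551 and 500 against 95.7; edgeR adjusted p = 0.0237) and the kinase Jak2 (71.9, 62.5 and 65.6 against 17.3; edgeR adjusted p = 0.0253). Their levels in the 3 allografts did not overlap the isograft, where 66% of all genes tested in macrophages lay wholly on one side. Among all those genes 1.95% were called higher and the median log2 change was -0.01.

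Of 15 cathepsin inhibitors 11 were tested, and 2 rose and none fell (median -0.57), where 1.95% of all genes were called higher. Serpina3g, an inhibitor of cysteine cathepsins in lymphocytes, stood at 193, 177 and 245 CPM against 1.18 on 17 isograft counts (log2 7.46, SE 0.42, edgeR adjusted p = 0.0111). Cst7, cystatin F, which acts on cathepsin C, stood at 33.4, 35.1 and 23.7 CPM against 1.80 (4.13, SE 0.37, edgeR adjusted p = 0.022). The fitted rise was 176-fold for Serpina3g and 17.5-fold for Cst7. Both stood above the isograft in each allograft, where 66% of all genes tested in macrophages lay wholly on one side.

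Few other lysosome genes passed. Of 27 of them 2 fell and none rose, and their median log2 change was -0.01, as was that of all genes. Among those was Atp6v0d2, a proton pump subunit of macrophages and osteoclasts (11.3, 12.0 and 12.8 CPM against 31.5; log2 -1.37, SE 0.19, edgeR adjusted p = 0.0432). None passed among 8 genes of lysosomal sorting (median 0.29), 6 regulators of lysosomal genes (median 0.25), 6 tested of 15 other cathepsins and related proteases (median -0.40), and 9 matrix targets and partners of secreted cathepsins (median -1.15). Beside the 2.51% of all genes called, these counts are given as descriptions.

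Monocytes showed the same fall of Ctsl. It stood at 299, 393 and 278 CPM in the allografts and 1053 CPM in the isograft (log2 -1.81, SE 0.25, edgeR adjusted p = 0.0354), with no overlap. Ctss stood at 3516, 3553 and 2242 CPM against 2127, so that allograft 3 lay next to the isograft (0.43, SE 0.33, edgeR adjusted p = 0.543). How many of all genes lay without overlap in monocytes was not computed. Macrophage markers in these sums were at 1288, 1695 and 456 CPM against 497, in the order of Ctsl among the allografts but not against the isograft. Their part was not tested. The ratio of Ctsl to Ctss was 0.0850, 0.111 and 0.124 against 0.495. Ctsl was 1 of 10 members called, where 1.60% of 12417 genes were called. Phagocytes of neither set held Ctsl at 389, 512 and 524 CPM against 1683. With all phagocytes joined the log2 change of Ctsl was -2.38 (edgeR adjusted p = 0.0101). Ctsk was called too (-1.71, edgeR adjusted p = 0.0443), where 6.77% of 16225 genes were called. Ctsk stood at 5.26, 5.27 and 8.63 CPM against 20.6 in the joined sums. Fibroblast markers there stood at 95.9, 110 and 771 against 917, in the same order of libraries. Their part in the Ctsk level was not tested. Without allograft 1 the monocyte call was lost (edgeR adjusted p = 0.0586), and without allograft 3 the call was made for 6 of the 9 members with a fold, where 18.1% of genes were called.

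Within the allografts, macrophages and monocytes of the same library were set against each other, with the library as a block. Macrophages held more of 8 of the 10 cathepsins, and none was lower, where 19.8% of 11838 genes differed and 9.17% were higher. Ctsb differed most, by log2 1.49 (SE 0.06, edgeR adjusted p = 0.000166), followed by Ctsd (1.25, SE 0.14, edgeR adjusted p = 0.00276) and Ctsl (1.18, SE 0.12, edgeR adjusted p = 0.00189). Ctss was higher by 0.84 (SE 0.08, edgeR adjusted p = 0.00121). Ctsk (0.89), Ctsa (0.58), Ctsz (0.45) and Ctsh (0.45) passed as well.

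Ctsc did not pass (log2 0.03, SE 0.05, edgeR adjusted p = 0.742), at 2082, 2142 and 1714 CPM in macrophages and 2090, 2248 and 1750 CPM in monocytes. Nor did Ctsw (0.09, SE 0.21). Ctsl was thus lower in allograft macrophages than in isograft macrophages, while within the allografts it stayed higher in macrophages than in monocytes. Without the library block, Ctsb and Ctsl were the members still called. Over all alternative runs of this comparison, 54 outcomes for the 10 members stayed the same, 12 lost their call and 4 changed sign. Not all of the lost calls came from dropping the block.

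**Figure D4:**
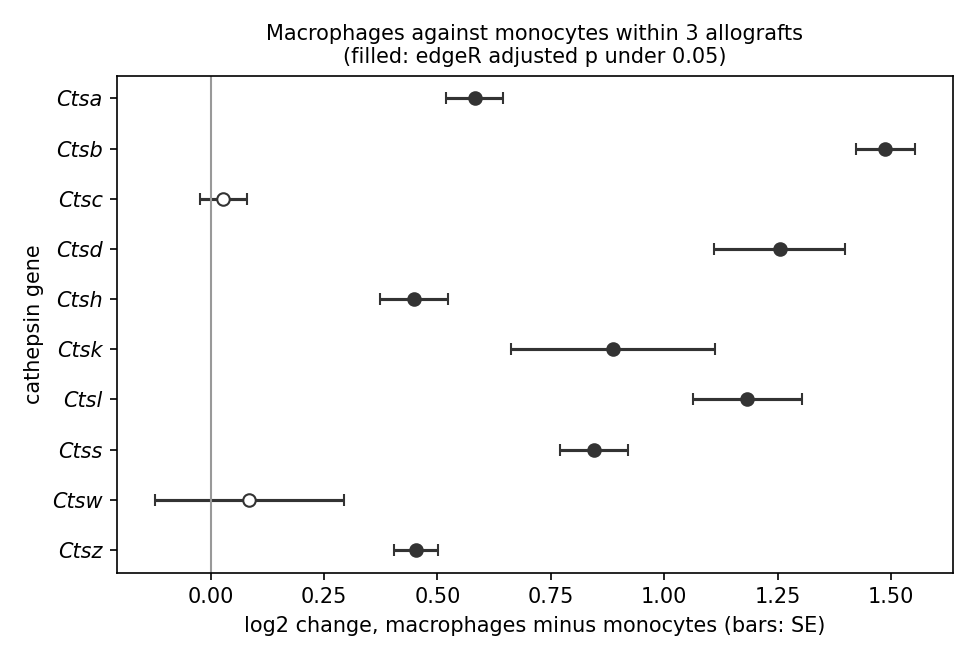
Log2 change of each cathepsin between macrophages and monocytes of the 3 allografts, with SE bars. Filled points passed the edgeR test: 8 genes lie to the right of 0, from Ctsh at 0.45 to Ctsb at 1.49, and the open points, Ctsc and Ctsw, lie near 0.

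Conventional dendritic cells, gated by Flt3 or Zbtb46 with other markers, did not share the pattern. Ctsl was counted 41, 27 and 125 times in the allografts and 24 times in the isograft, or 108, 70.6 and 203 CPM against 78.4, and Ctss stood at 831, 1032 and 740 CPM against 1209. For Ctsl the isograft lay within the allograft range, and for Ctss it lay above all 3. Neither passed within the class (Ctsl 0.58, SE 0.56, edgeR adjusted p = 0.731; Ctss -0.63, SE 0.29, edgeR adjusted p = 0.417), and none of 8 tested members did, where 0.763% of 6550 genes were called. The allograft effect itself differed from that in macrophages for both genes: by log2 2.60 for Ctsl (SE 0.46, edgeR adjusted p = 0.00973) and by -1.51 for Ctss (SE 0.26, edgeR adjusted p = 0.00924). These were 2 of 10 members, where 1.09% of 12620 genes differed so.

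The dendritic sums were small, at 33, 49 and 74 allograft cells and 62 isograft cells. The 6 macrophage markers summed to 301, 423 and 265 CPM in them and 62.1 CPM in the isograft. The 7 monocyte markers summed to 1485, 776 and 2332 CPM against 762, in nearly the order of libraries of Ctsl, and the fibroblast markers to 73.8, 23.5 and 912 against 1820. Their part in the Ctsl level was not tested. With doublets kept, the dendritic Ctsl change turned to -0.07 and the difference from macrophages was 1.94 (edgeR adjusted p = 0.0486). In no other class did a member's effect pass this test. The share of genes that did was 0.628% in monocytes, 0.799% in neutrophils, 0.0926% in T cells, 0.994% in endothelial cells and 0.171% in fibroblasts.

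In neutrophils Ctss rose. It was counted 248, 301 and 572 times in the allografts and 78 times in the isograft, or 1516, 1127 and 619 CPM against 160 (log2 2.93, SE 0.58, edgeR adjusted p = 0.0274), a 7.61-fold higher level, and every allograft lay above the isograft. It was 1 of 10 members called, where 3.39% of 5302 genes were called. How many of all neutrophil genes lay wholly on one side was not computed. The phagocyte markers summed to 8130, 7478 and 5522 CPM in allograft neutrophils and 6192 in isograft ones, and the macrophage markers to 1773, 1546 and 112 against 465. The 7 monocyte markers summed to 2030, 2749 and 2999 CPM against 1573, higher in every allograft, as Ctss was, though highest in allograft 3 where Ctss was lowest of the 3. The part of these transcripts in the Ctss level was not tested. The effect did not differ from that in macrophages by the test of the difference (log2 1.87, edgeR adjusted p = 0.184). The call held without each allograft in turn (edgeR adjusted p at most 0.0333).

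Ctsl in neutrophils was at 104, 131 and 111 CPM against 337 (log2 -1.29, SE 0.41, edgeR adjusted p = 0.155). The allografts lay together under the isograft without passing. Fibroblast markers, which mark a class rich in Ctsl here, summed to 73.4, 78.6 and 944 CPM in allograft neutrophils and 2449 in isograft ones. Their part was not tested.

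Endothelial cells, which line the graft vessels and first meet the recipient's blood, had lower Ctsl in the allografts. It stood at 291, 270 and 368 CPM against 933 (log2 -1.54, SE 0.22, edgeR adjusted p = 0.0226), a 2.90-fold lower level with no overlap. It was 1 of 10 members called, where 4.22% of 12716 genes were called. The share of all genes without overlap was not computed in this class. Phagocyte markers summed to 914, 773 and 223 CPM in allograft endothelial sums and 607 in the isograft, and macrophage markers to 619, 454 and 86.3 against 281, an order of libraries that Ctsl did not follow. Mural cell markers summed to 87.2, 173 and 187 CPM against 561, lower in every allograft as Ctsl was, fibroblast markers to 51.6, 173 and 734 against 635, and monocyte markers to 170, 157 and 246 against 36.7. Their part in the Ctsl level was not tested.

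Ctss in endothelial sums was at 380, 226 and 37.4 CPM against 70.9, in the same order as the phagocyte and macrophage markers. It did not pass (log2 1.67, SE 1.14, edgeR adjusted p = 0.448). Ctsc was at 160, 97.0 and 22.2 CPM against 25.0 (edgeR adjusted p = 0.321), again in that order. The part of phagocyte transcripts in these levels was not tested. The Ctsl call was lost without allograft 1 (edgeR adjusted p = 0.0535) or allograft 2 (0.0693). Without allograft 3, 8 of 10 members were called in endothelial cells, where 37.9% of genes were.

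**Figure D5:**
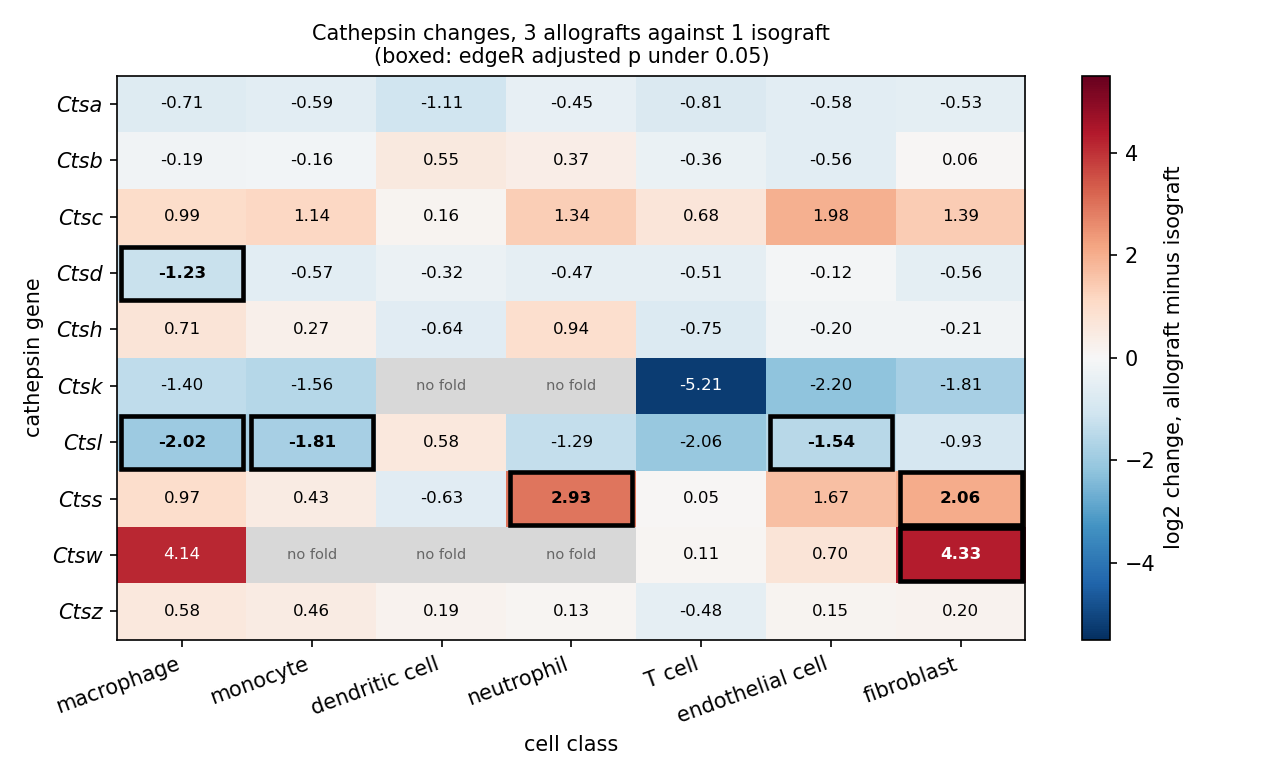
Log2 change of each cathepsin (rows) between the 3 allografts and the isograft in 7 cell classes (columns), coloured from blue (lower in allografts) to red (higher), with values printed. Boxes mark edgeR adjusted p under 0.05. Ctsl is boxed in macrophages, monocytes and endothelial cells, Ctss in neutrophils and fibroblasts, Ctsd in macrophages and Ctsw in fibroblasts. Grey cells were not tested or have no fold because a group held at most 3 counts.

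In fibroblasts, which lay down the heart's matrix, Ctss and Ctsw rose. Ctss stood at 275, 224 and 188 CPM against 51.8 (log2 2.06, SE 0.34, edgeR adjusted p = 0.0151). Ctsw stood at 5.97, 13.8 and 15.2 CPM against 0.577, on 8, 24 and 334 counts against 33 (4.33, SE 0.71, edgeR adjusted p = 0.0141). They were 2 of 10 members, where 2.38% of 15795 genes were called higher and 2.85% in either direction.

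Transcripts of other cells were also higher in every allograft than in the isograft in these fibroblast sums. Phagocyte markers summed to 732, 718 and 1008 CPM against 385, macrophage markers to 426, 544 and 533 against 198, monocyte markers to 809, 779 and 2971 against 408, and T cell markers to 51.5, 120 and 99.7 against 13.6. Among the allografts, phagocyte and monocyte markers were highest in allograft 3, where Ctss was lowest and Ctsw highest. Macrophage and T cell markers were highest in allograft 2. The part of these transcripts in the Ctss and Ctsw rises was not tested. With doublets kept the Ctss change was 0.92 and did not pass (edgeR adjusted p = 0.197), and without allograft 3, which held 2097 of the allograft fibroblasts against 64 and 154, that of Ctsw did not (edgeR adjusted p = 0.062).

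Fibroblasts held 85.0% and 94.3% of all Ctsk UMIs in allograft 3 and the isograft. In allografts 1 and 2, where fibroblasts were few, they held 24.8% and 31.2%, beside 31.9% and 24.1% in macrophages, 8.40% and 7.07% in monocytes and 13.025% and 14.8% in other phagocytes. Ctsk stood at 44.1, 55.6 and 113 CPM in allograft fibroblasts and 246 CPM in the isograft, with no overlap (log2 -1.81, SE 0.46, edgeR adjusted p = 0.0881). DESeq2 called it (DESeq2 adjusted p = 0.0306). Fibroblast Ctsl was at 453, 555 and 668 CPM against 1018 (-0.93, SE 0.32, edgeR adjusted p = 0.218), again with the allografts all below. The share of all fibroblast genes without overlap was not computed. The ratio of Ctsl to Ctss in fibroblasts was 1.65, 2.48 and 3.55 in the allografts and 19.7 in the isograft.

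Ctsw was a gene of NK and T cells. It stood at 1157, 1574 and 526 CPM in allograft NK cells and 607 CPM in the 7 NK cells of the isograft, and at 309, 289 and 190 CPM in allograft T cells and 290 CPM in the isograft (log2 0.11, SE 0.38, edgeR adjusted p = 0.885). T cells held 74.7%, 69.9% and 39.3% of its UMIs in the allografts. In monocytes it was counted 73, 75 and 8 times in the allografts and 0 times in the isograft, and in neutrophils 4, 20 and 6 times and 0 times, and neither passed.

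The T cell comparison was weak, since the isograft gate held 35 cells whose sum also carried macrophage markers at 2628 CPM and fibroblast markers at 5019 CPM. No gene of 13835 passed there (0%) by edgeR, with 1818 at an unadjusted p under 0.05, while DESeq2 called 274. The median log2 change of all T cell genes was 0.65 by edgeR's scaling and -0.85 by DESeq2's, so no direction is given for the cathepsins of T cells. Elsewhere the 2 scalings put that median within 0.18 of each other.

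Across the 7 classes the order of Ctsl levels in the isograft ran from macrophages (2894 CPM) through monocytes (1053), fibroblasts (1018) and endothelial cells (933) to neutrophils (337), T cells (257) and dendritic cells (78.4). The T cell and dendritic values each rest on 24 isograft counts. The T cell sum, of 35 cells, also carried macrophage and fibroblast markers, whose part in its Ctsl level was not tested. In the allografts fibroblasts (559 ± 107, SD, n = 3) stood next to macrophages (699 ± 66.8), with monocytes (323 ± 61.0) and endothelial cells (310 ± 51.7) below, the latter pair not differing beyond their spread, and neutrophils (115 ± 14.0), dendritic cells (127 ± 68.4) and T cells (51.8 ± 16.1) lowest. For Ctss the allograft order was macrophages (5265 ± 805), monocytes (3104 ± 746), neutrophils (1087 ± 450) and dendritic cells (868 ± 150), the last pair within their spread, and then T cells (291 ± 174), fibroblasts (229 ± 43.6) and endothelial cells (215 ± 172), which did not differ beyond theirs.

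Over 44 class and library sums and among 3471 genes with at least 50 CPM on average, the genes whose log2(CPM + 1) tracked Ctsl most closely were Anxa5 (Pearson r = 0.83), Cd302 (0.83), Selenop (0.83), Lamp1 (0.81) and Slc39a1 (0.80). Those tracking Ctss were Aif1 (0.94), Ms4a6c (0.93), another member, Ctsc (0.93), and the oxidase subunits Cybb (0.92) and Cyba (0.91). Ctsl and Ctss tracked each other at r = 0.20. The sums share libraries and depth, so these correlations are descriptions without a test.

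Each gene lies at 1 place of mm10. Ctss and Ctsk are neighbours on chromosome 3 (95526786 to 95556403 and 95499256 to 95509362, both plus strand), while Ctsl is on chromosome 13 (64359337 to 64370890, minus strand) and Ctsd on chromosome 7 (142375911 to 142388038, minus strand). Ctsk was under the isograft and Ctss above it in all 3 allografts of macrophages and of fibroblasts. Of these changes only that of Ctss in fibroblasts passed, and the genes were not tested against each other. Lying wholly on one side of the isograft held for 66% of genes tested in macrophages. By the annotation Ctsl overlaps the antisense gene Gm47123, Ctsw the opposite-strand gene Fibp and Ctsd the same-strand gene Gm49369. No source used here says whether strand was counted, so whether reads of Gm47123 and Fibp were kept apart is not known. For Gm49369 strand would not tell the reads apart in either case.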

How the data were processed

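Counts were deposited by the authors as whole, non-normalized UMI numbers per gene and barcode, made with Cell Ranger (3.1.0 per the submitters' processing notes, 6.1.0 per the file headers) on mm10. Barcodes with under 500 UMIs, under 300 genes or over 20% mitochondrial UMIs were left out, and Scrublet's highest scores at 0.8% per 1000 barcodes were removed as doublets. Between 14 and 31 barcodes were shared by a pair of libraries. A cell took the class with the largest share of markers detected, with at least 3 markers and a lead of 0.1. NK and dendritic cells were set by a separate rule that replaced the first class and needed no lead. It asked for at least 2 own markers and at most 0.5 of any other class's markers (under 0.5 for NK cells). NK cells also had at most 2 T cell markers, and dendritic cells had Flt3 or Zbtb46. Raw UMIs were summed per library and class and tested with the edgeR 4.0.16 quasi-likelihood test (TMM, default filter, Benjamini-Hochberg adjustment over all genes, threshold 0.05, 2 residual degrees of freedom). The lone isograft is assumed to vary like the allografts, and each SE, the size of the log2 change over the root of F, is approximate. Differences of effects between classes and macrophages against monocytes used the library as a block. Genes named besides the cathepsins are up to 4 per list by adjusted p in macrophages and the 5 most correlated with Ctsl and with Ctss, of which some are not reported here. The members, markers, lists and rules were chosen with earlier results of these data known. Scripts were tested on simulated data.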

Additional observations from a re-analysis of the deposited data

Results flagged for a closer look

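The allograft effect on 2 cathepsins differed between dendritic cells and macrophages by a test of the difference itself. For Ctsl the effect in dendritic cells was higher than that in macrophages by 2.60 on the log2 scale (SE 0.46, edgeR adjusted p = 0.00973), from levels of 108, 70.6 and 203 CPM against 78.4 in dendritic cells. The difference lay between 1.94 and 2.91 with doublets kept and with each allograft left out, and passed in each of those. For Ctss it was -1.51 (SE 0.26, edgeR adjusted p = 0.00924), and between -1.60 and -1.44 in the same alternatives. The sums rest on 33, 49, 74 and 62 dendritic cells.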

How the results depend on the processing

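The ratio of Ctsl to Ctss kept its direction in each of 7 classes under each alternative run. That direction was not the same in all of them. The mean log2 ratio was higher in the allografts by 1.05 in dendritic cells and lower in the other classes. In dendritic cells it was -2.94, -3.87 and -1.86 in allografts 1, 2 and 3 against -3.95, so that allograft 2 lay next to the isograft. In endothelial cells it was -0.39, 0.25 and 3.3 against 3.72, with allograft 3 nearest the isograft. The permutation test gave p = 0.5 in each of these classes, so neither direction is set apart from the spread between libraries. In T cells the ratio rests on the weak isograft sum. With each allograft left out the log2 difference lay between -3.17 and -2.83 in macrophages and between 0.54 and 1.54 in dendritic cells. Counts of genes called moved more. In macrophages DESeq2 called 1182 genes, no filter on low counts 816, macrophages, monocytes and other phagocytes joined 1098, and lipid-associated macrophages alone 21, against 375. DESeq2 called 473 in monocytes, 274 in T cells and 743 in fibroblasts, against 199, 0 and 450. With no filter the counts were 565 in monocytes, 360 in dendritic cells, 376 in neutrophils, 53 in T cells, 1072 in endothelial cells and 1682 in fibroblasts. With doublets kept neutrophils gave 277, and the differences between fibroblasts and macrophages 0, against 29. Macrophages against monocytes gave 298 with no library block, against 2339.

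Leaving out each allograft gave 125 to 6425 genes in macrophages, 206 to 2145 in monocytes, 142 to 510 in dendritic cells, 252 to 510 in neutrophils, 0 to 915 in T cells, 301 to 4918 in endothelial cells and 499 to 1222 in fibroblasts, in each case most without allograft 3. For differences from macrophages it gave 0 to 1372 in monocytes, 202 to 563 in dendritic cells, 40 to 400 in neutrophils, 4 to 732 in T cells, 151 to 3320 in endothelial cells and 162 to 2672 in fibroblasts, and for macrophages against monocytes 529 to 3623. The cause was not tested.

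Some small log2 changes turned sign. With each allograft left out they spanned -0.36 to 0.04 for Ctsb in monocytes, -0.06 to 0.21 for Ctsb in fibroblasts, -0.42 to 0.43 for Ctss and -0.01 to 0.27 for Ctsw in T cells, and -0.27 to 0.03 for Ctsd, -0.57 to 0.10 for Ctsh and -0.15 to 0.46 for Ctsz in endothelial cells. Between macrophages and monocytes they spanned -0.01 to 0.06 for Ctsc and -0.04 to 0.37 for Ctsw. Ctsb turned to 0.03 in lipid-associated macrophages, and with doublets kept Ctsb turned to -0.20 in fibroblasts, Ctsl to -0.07 in dendritic cells and Ctsw to -0.29 between macrophages and monocytes (-0.05 with 1 marker more). With 1 marker more dendritic cells could not be tested. No paired analysis was possible because the groups share only replicate number 2. Counts limit NK, B, mural and lymphatic cells and cardiomyocytes, which had under 20 cells in a library.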
